A study of Canis lupus familiaris with 4 samples.

Results

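The genes described here encode enzymes that convert aldehydes, retinoids, steroids and drugs, in mammary ductal carcinoma and in adjacent non-tumor mammary tissue of dogs. Within the families chosen they were taken by gene symbol alone, as all rows named for an aldehyde dehydrogenase (ALDH), a cytochrome P450 (CYP), a glutathione transferase (GST or MGST), a glucuronosyltransferase (UGT), an aldo-keto reductase (AKR), an alcohol dehydrogenase (ADH), a sulfotransferase (SULT), a flavin monooxygenase (FMO), a carboxylesterase (CES), a monoamine oxidase (MAO), a retinol or short-chain dehydrogenase (RDH or DHRS), a hydroxysteroid dehydrogenase (HSD11B or HSD17B) or an epoxide hydrolase (EPHX). Of 11277 genes in the count tables, 68 had such a symbol, and 66 remained after CYP51A1 and HSD17B7, genes of cholesterol synthesis, were set aside. In the RefSeq gene table of the assembly UU_Cfam_GSD_1.0, 134 symbols follow the same rule, and genes of these families outside the count tables were not analysed here.

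Total RNA was sequenced from 4 libraries, each a pool of RNA from 3 dogs. C1 and C2 (control) were made from non-tumor mammary tissue beside the tumor, and T1 and T2 (carcinoma) from the ductal carcinoma itself, in unneutered bitches of several breeds aged 5 to 14 years that had a radical mastectomy. By the study's account C1 and T1 come from the same dogs (pool 1) and C2 and T2 from the others (pool 2). An n of 2 counts pools, so the spread between single dogs is not seen, and in bulk tissue fewer cells of a type and less RNA per cell cannot be told apart. Libraries held 3236218 to 35496260 counts, with pool 2 the shallower pool in both tissues. Levels are given in CPM, counts scaled by library size and TMM factor. The tissues were compared over all 11277 genes with the quasi-likelihood test of edgeR, without the pairing by dogs, and p-values measure only the spread between these pools. A call of higher or lower in carcinoma needed a Benjamini-Hochberg adjusted p under 0.05 and a log2 fold change at or beyond 1 in size, and the verbs rose and fell are kept for called genes. Standard errors (SE) are on the log2 scale. Levels are compared between libraries and not between genes, because the length that the tables give per gene lies near the gene span with introns.

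Enzymes of these families work in chains. Retinol is carried by binding proteins, oxidised to retinaldehyde by retinol dehydrogenases and then to retinoic acid by the ALDH1A enzymes, and retinoic acid is either bound by nuclear receptors or broken down by the CYP26 enzymes. Cytochromes P450 also hydroxylate steroids, vitamin D, bile acid precursors, fatty acids and foreign compounds, and transferases then join glutathione, glucuronic acid or sulfate to the products. Monoamine oxidases break down amine transmitters, and epoxide hydrolases open the reactive epoxides that some P450 enzymes make. The mammary gland expresses many of these genes, and ALDH activity is widely used to mark mammary epithelial cells with stem cell traits.

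Of the 66 enzyme genes, 7 rose in carcinoma (CYP1A1, RDH16, CYP26B1, EPHX2, GSTM4, HSD11B1 and CYP1B1) and 5 fell (CYP24A1, MAOB, DHRS9, ALDH1L1 and CYP2J2), while 54 were not called. Over all genes 4.62% were called higher, 5.24% lower and 9.86% in either direction. At an adjusted p under 0.05 with any fold change, 10 of the 66 were higher and 6 lower, where 6.93% and 6.96% of all genes were. DESeq2 called 7 higher and 4 lower, where it called 5.08% and 5.61% of all genes, and at any fold change 16 of the 66 passed its test, where 16.3% of all genes did. The median log2 fold change of the 66 genes was 0.28, against 0.03 over all genes, with 40 fold changes above 0 and 26 below. Over all 11277 genes 5921 fold changes lay above 0 and 5356 below. In 35 of the 66 genes the absolute log2 fold change was under 0.5. Both carcinoma libraries lay on one side of both controls for 46 of the 66 genes (29 higher and 17 lower), where 57.6% of all genes did so (29.6% higher and 28% lower). Of the families with more than 1 member, the cytochromes P450 went furthest in both directions, with 3 of 15 genes higher and 2 lower, and their log2 fold changes ran from −3.55 to 4.38. Of the 15 aldehyde dehydrogenases, 1 fell and none rose (edgeR, with 5 at an unadjusted p under 0.05 in either direction and none called higher by DESeq2). Over all genes 28.5% had an unadjusted p under 0.05 in edgeR.

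**Figure D1:**
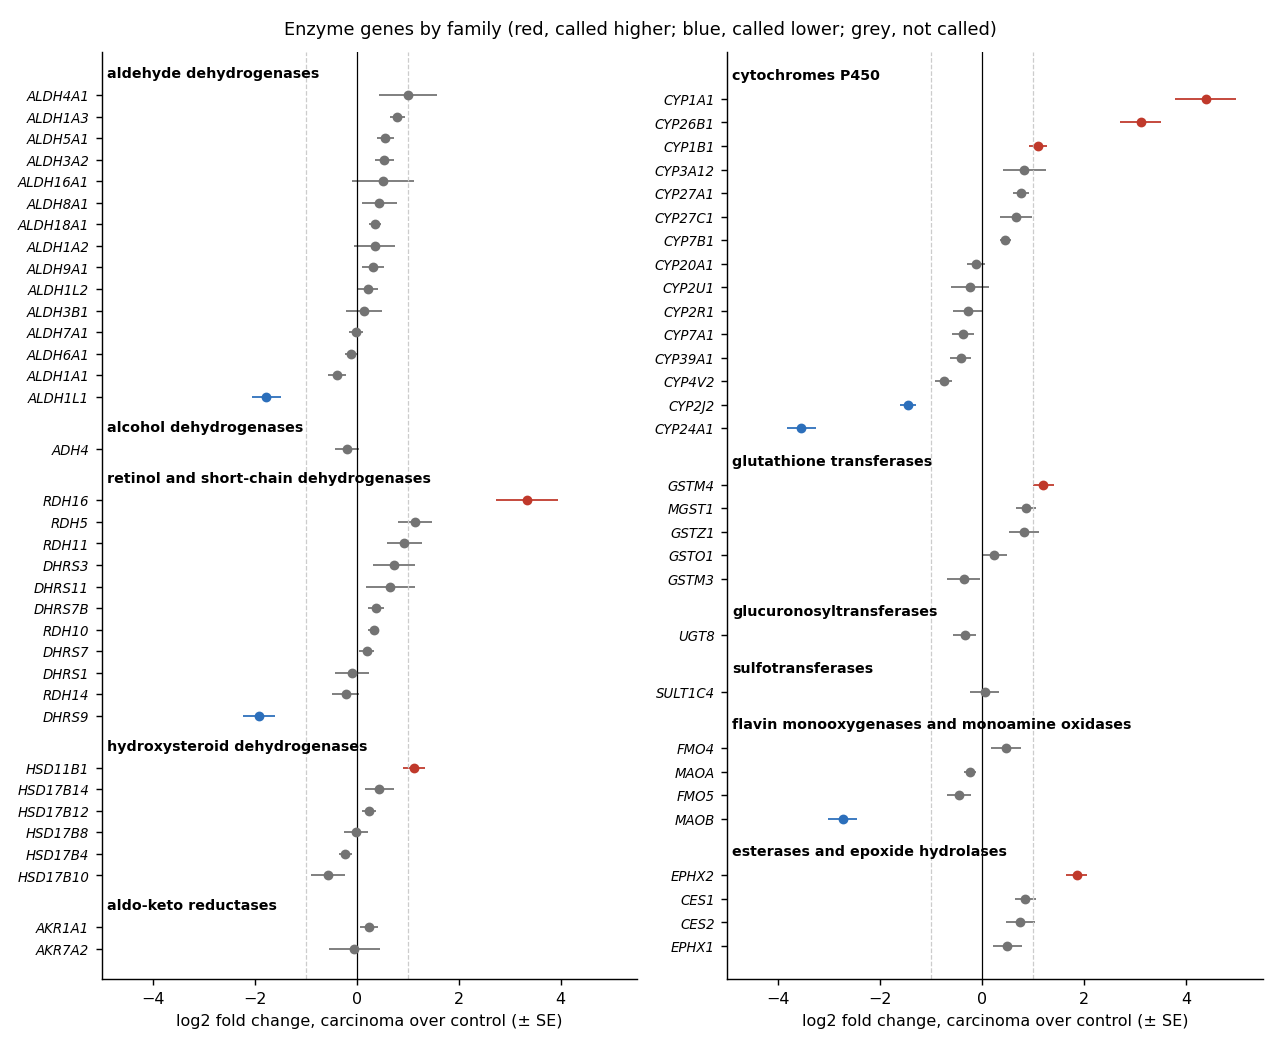
Log2 fold change of carcinoma over control (x axis) for the enzyme genes named in the text, grouped by family, with bars of 1 standard error. Red marks the 7 genes called higher and blue the 5 called lower, and dashed lines stand at a log2 fold change of −1 and 1. Most grey points lie between these lines, while CYP1A1 at 4.38 and CYP24A1 at −3.55 lie at the ends.

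**Figure D2:**
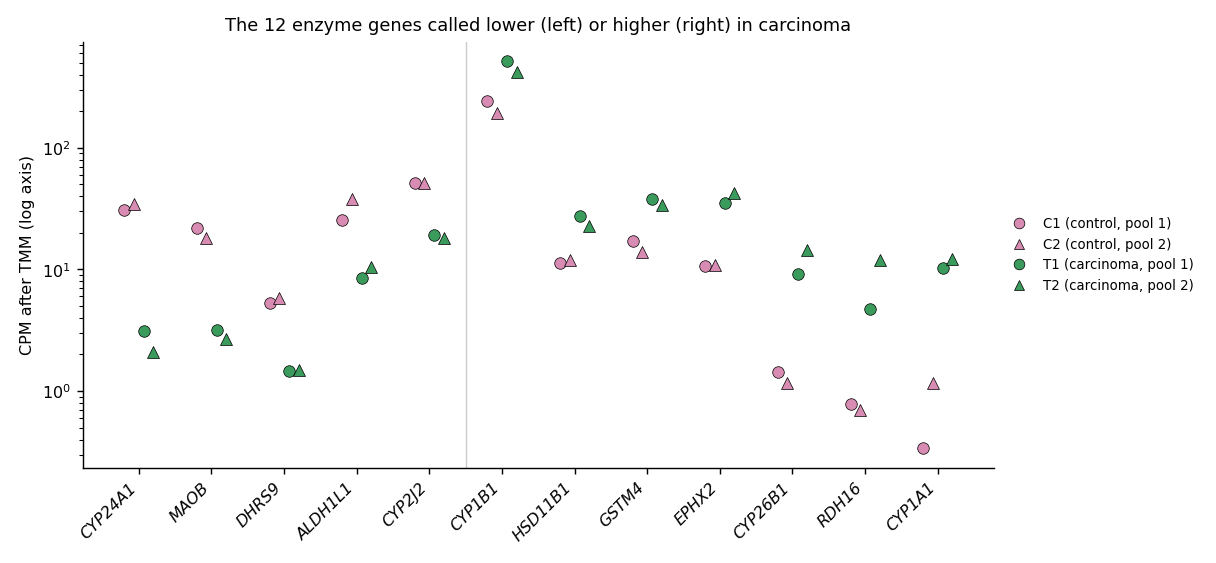
CPM (log axis) of the 12 called enzyme genes in each library. Pink points are control libraries, green points carcinoma libraries, and a circle stands for pool 1, a triangle for pool 2. In each gene both carcinoma libraries lie on one side of both controls, and CYP24A1, for example, falls from 30.8 and 34.5 CPM in control to 3.09 and 2.08 CPM in carcinoma.

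At the start of the retinoid route, 2 carriers of retinol fell. RBP4, which encodes the retinol carrier of plasma, stood at 14.9 CPM in C1 and 14.8 CPM in C2 and at 3.43 CPM in T1 and 2.68 CPM in T2, a log2 fold change of −2.23 (SE 0.29, adjusted p = 0.00997). RBP7, which encodes a cellular retinol-binding protein, fell by 3.34 on the log2 scale (SE 0.50, adjusted p = 0.0153), at 8.50 and 5.33 CPM in the controls and 0.572 and 1.19 CPM in the carcinomas. T2 held only 9 counts of RBP4 and 4 of RBP7. Without T1 the call of RBP7 was lost (log2 fold change −2.62, adjusted p = 0.0676). STRA6, which encodes a cell surface receptor for the carrier, was 4.74 and 12.3 CPM in the controls and 0.715 and 2.68 CPM in the carcinomas and was not called (adjusted p = 0.107), though with the pool as a replicate block it was (log2 fold change −2.57). The pool 2 libraries were the higher ones for STRA6 in both tissues. LRAT, which encodes the enzyme that stores retinol as esters, was not called (log2 fold change −0.35, SE 0.32, adjusted p = 0.53).

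Of the 11 retinol and short-chain dehydrogenase genes, RDH16 rose, DHRS9 fell and 9 were not called. RDH16 was 0.779 CPM in C1, 0.695 CPM in C2, 4.72 CPM in T1 and 11.9 CPM in T2, a rise of 3.34 on the log2 scale (SE 0.61, adjusted p = 0.0271). Both carcinomas lay above both controls, but with 23 counts in C1 and 3 in C2 the level in control is imprecise. The ratio of carcinoma to control was 6.06 in pool 1 (95% interval 3.90 to 9.83) and 17.1 in pool 2 (5.45 to 86.4), intervals that cover counting error only. Without C1 the call of RDH16 was lost (log2 fold change 3.40, adjusted p = 0.129), and without T2 its log2 fold change was 2.63. DHRS9, a short-chain dehydrogenase gene whose enzyme also acts on retinol, went the other way, from 5.32 CPM in C1 and 5.80 CPM in C2 to 1.46 CPM in T1 and 1.49 CPM in T2, a log2 fold change of −1.91 (SE 0.31, adjusted p = 0.0199). The 2 libraries of each tissue lay close together, yet T2 held only 5 counts of DHRS9. Leaving out any of the 4 libraries ended the call of DHRS9, with adjusted p-values of 0.0605 without T2, 0.0682 without C2, 0.0752 without C1 and 0.107 without T1, and DESeq2 did not call it (adjusted p = 0.0569).

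RDH10, the main retinol dehydrogenase of embryonic tissues, was 110.4 and 98.8 CPM in the controls and 133.6 and 130.0 CPM in the carcinomas, a log2 fold change of 0.33 that did not pass (SE 0.11, adjusted p = 0.135). RDH5, named for its part in the visual cycle, and RDH11, which mainly reduces retinaldehyde, each had both carcinomas above both controls without being called. For RDH5 the levels were 3.59 and 3.71 CPM in control and 6.78 and 9.81 CPM in carcinoma (log2 fold change 1.15, SE 0.33, adjusted p = 0.0906), and for RDH11 they were 4.03, 6.26, 9.04 and 10.1 CPM in C1, C2, T1 and T2 (log2 fold change 0.94, SE 0.34, adjusted p = 0.156). With the pool as a replicate block both were called. RDH5 then had a log2 fold change of 1.02 (adjusted p = 8.33e-06) and RDH11 one of 1.06 (adjusted p = 3.19e-07). The blocked fit leaves 1 residual degree of freedom, so its p-values rest largely on a spread pooled over genes. DHRS3, whose enzyme returns retinaldehyde to retinol, differed more between pools than between tissues, with 19.4 CPM in C1 and 26.9 CPM in T1 against 29.4 CPM in C2 and 54.4 CPM in T2. The other members of the family, RDH14, DHRS1, DHRS7, DHRS7B and DHRS11, had log2 fold changes from −0.22 to 0.66 and were not called.

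The 3 genes whose enzymes make retinoic acid were not called. ALDH1A3 came nearest, at 57.7 CPM in C1, 62.1 CPM in C2, 93.5 CPM in T1 and 115.4 CPM in T2. Its adjusted p passed (0.0272), but its log2 fold change of 0.80 (SE 0.15) lay under the minimum. ALDH1A1, the gene most often tied to ALDH activity in stem cell assays, leaned the other way, from 51.8 and 42.9 CPM in the controls to 38.1 and 34.5 CPM in the carcinomas (log2 fold change −0.38, SE 0.17, adjusted p = 0.218). ALDH1A2 was low, with 12 counts in C2 and 20 in T2, and its log2 ratio of carcinoma to control was −0.03 in pool 1 and 1.07 in pool 2.

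CYP26B1, which encodes an enzyme that breaks down retinoic acid, rose from 1.42 CPM in C1 and 1.16 CPM in C2 to 9.19 CPM in T1 and 14.6 CPM in T2. The log2 fold change was 3.11 (SE 0.40, adjusted p = 0.00964), with a ratio of 6.46 in pool 1 (95% interval 4.67 to 9.13) and 12.6 in pool 2 (5.04 to 40.4). The pool 2 interval is wide because C2 held 5 counts. RARB, a nuclear receptor gene that retinoic acid is known to induce, also rose, from 21.8 and 24.1 CPM in the controls to 71.6 and 68.7 CPM in the carcinomas (log2 fold change 1.62, SE 0.14, adjusted p = 0.00405). Retinoic acid was not measured, and a link between the rises of RARB and CYP26B1 was not tested. RARA and RARG, the other retinoic acid receptor genes, were not called and were higher in pool 2 than in pool 1 in both tissues. Of the 14 measured genes among 23 listed as retinoid carriers, storage enzymes and receptors, 1 rose, 2 fell and 11 were not called. With the replicate block RXRG, a retinoid X receptor gene, was also called higher (log2 fold change 1.29, adjusted p = 6.07e-07) and STRA6 lower. Without the block, 9 of the 14 log2 fold changes lay above 0 and 5 below. RARRES1, in the same list, was 48.1 and 55.4 CPM in the controls and 29.3 and 28.8 CPM in the carcinomas. Its adjusted p passed (0.0309), but its log2 fold change of −0.83 (SE 0.16) was under the minimum in size. Set against CYP26B1 within a library, each ALDH1A gene had a lower ratio in carcinoma. The 3 ratios share the rise of CYP26B1 (3.11) and are not separate results. The log2 fold changes of ALDH1A1, ALDH1A2 and ALDH1A3 themselves were −0.38, 0.35 and 0.80. In C2 the ratios rest on 5 counts of CYP26B1, and that of ALDH1A2 on 12 of its own. The log2 ratio in carcinoma minus that in control was −3.44 on average for ALDH1A1 (−3.04 in pool 1 and −3.84 in pool 2), −2.27 for ALDH1A3 (−1.90 and −2.64) and −2.55 for ALDH1A2 (−2.63 and −2.46). With 2 libraries in each tissue no exact permutation test can pass a threshold of 0.05, and these ratios were not tested.

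**Figure D3:**
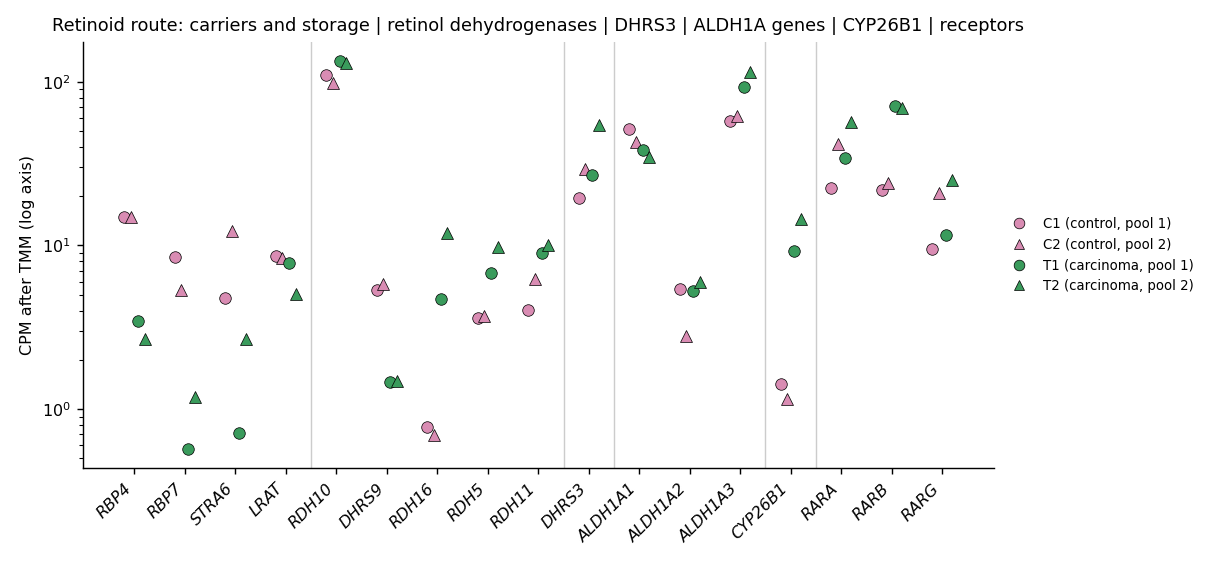
CPM (log axis) of genes along the retinoid route in each library, with grey lines between the steps. Control libraries are pink, carcinoma libraries green, and circles and triangles stand for pool 1 and pool 2. The called genes CYP26B1, RARB and RDH16 lie higher in both carcinoma libraries, and RBP4, RBP7 and DHRS9 lower. RDH5, RDH11 and ALDH1A3 lie higher and STRA6 lower without being called, and ALDH1A1 and RDH10 differ little.

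Outside the retinoid route, the aldehyde dehydrogenase that fell was ALDH1L1, which encodes a cytosolic enzyme of folate metabolism. It was 25.6 CPM in C1, 38.0 CPM in C2, 8.44 CPM in T1 and 10.4 CPM in T2, a log2 fold change of −1.77 (SE 0.29, adjusted p = 0.0201). The carcinomas lay below both controls in each pool, 3.03-fold in pool 1 and 3.65-fold in pool 2. Without C2 the adjusted p of ALDH1L1 was 0.0518 and without T1 it was 0.0639. ALDH1L2, its mitochondrial counterpart, was not called and was 19.8 and 18.3 CPM in the controls and 21.0 and 23.8 CPM in the carcinomas.

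ALDH5A1, ALDH3A2 and ALDH18A1 lay above both controls in both carcinomas without reaching the threshold. ALDH5A1, of the breakdown of the transmitter GABA, had a log2 fold change of 0.56 (SE 0.17, adjusted p = 0.105), ALDH3A2, which acts on fatty aldehydes, one of 0.54 (SE 0.19, adjusted p = 0.141) and ALDH18A1, of proline synthesis, one of 0.36 (SE 0.12, adjusted p = 0.116). ALDH4A1, of proline breakdown, had the largest fold change of the family above 0, at 1.01, but a large error (SE 0.58, adjusted p = 0.323). Its values were 13.7 CPM in C1 and 27.2 CPM in T1 against 32.0 CPM in C2 and 63.6 CPM in T2, so that the control of pool 2 lay above the carcinoma of pool 1 although carcinoma exceeded control within each pool. With the pool as a replicate block its log2 fold change was 0.99, just under the minimum (adjusted p = 6.42e-17). ALDH6A1, ALDH7A1 and ALDH9A1, of amino acid and carnitine metabolism, and ALDH3B1, ALDH8A1 and ALDH16A1 had log2 fold changes from −0.10 to 0.52 and were not called.

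Among the P450 genes, the pair that the aryl hydrocarbon receptor is known to induce rose together. CYP1A1, which encodes an enzyme that oxidises planar aromatic compounds and estrogens, was 0.339 CPM in C1, 1.16 CPM in C2, 10.3 CPM in T1 and 12.2 CPM in T2. Its log2 fold change was 4.38 (SE 0.60, adjusted p = 0.0113), and the call held without C1 (3.20) and without C2 (5.02), although the size moved. CYP1A1 had the largest rise of the 66 genes with all 4 libraries, but without C1 it came after RDH16 (3.40) and CYP26B1 (3.26). The controls held 10 and 5 counts and the carcinomas 360 and 41, and the ratio was 30.4 in pool 1 (95% interval 16.3 to 64.0) and 10.5 in pool 2 (4.16 to 34.1). CYP1B1, which encodes an extrahepatic enzyme that hydroxylates estradiol, was measured with far more counts, at 243 CPM in C1, 194 CPM in C2, 516 CPM in T1 and 420 CPM in T2. Its log2 fold change was 1.10 (SE 0.17, adjusted p = 0.0177), and the ratio was 2.12 in pool 1 and 2.16 in pool 2. Without C2 or T1 the log2 fold change of CYP1B1 fell under the minimum, at 0.95 and 0.89, while its adjusted p still passed, at 0.0358 and 0.0441. The receptor gene itself, AHR, was 358 and 276 CPM in control and 296 and 234 CPM in carcinoma and was not called (adjusted p = 0.432), nor was ARNT, the gene of its partner (adjusted p = 0.828).

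CYP24A1, which encodes the enzyme that inactivates vitamin D, had the largest fall of the 66 genes. It was 30.8 CPM in C1, 34.5 CPM in C2, 3.09 CPM in T1 and 2.08 CPM in T2, which is 11.7-fold lower in carcinoma (log2 fold change −3.55, SE 0.28, adjusted p = 0.00324). The tissues were well apart in both pools, although T2 held 7 counts, and the fold was 9.97 in pool 1 (95% interval 8.16 to 12.3) and 16.6 in pool 2 (7.86 to 42.0). VDR, the vitamin D receptor gene, was 97.8 and 139.8 CPM in the controls and 59.7 and 72.6 CPM in the carcinomas and was not called (log2 fold change −0.85, SE 0.21, adjusted p = 0.066). CYP2R1, whose enzyme takes part in vitamin D activation, was also not called (log2 fold change −0.28, SE 0.28, adjusted p = 0.562).

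CYP2J2 and EPHX2, which act in turn on arachidonic acid, moved in opposite directions. CYP2J2, whose enzyme makes epoxides of arachidonic acid, was 51.8 CPM in C1, 51.2 CPM in C2, 19.3 CPM in T1 and 18.1 CPM in T2, a log2 fold change of −1.46 (SE 0.16, adjusted p = 0.00646). EPHX2, which encodes the soluble hydrolase that opens these epoxides, was 10.6 CPM in C1, 10.9 CPM in C2, 35.3 CPM in T1 and 42.8 CPM in T2, a log2 fold change of 1.85 (SE 0.21, adjusted p = 0.00673). For both genes the 2 pools of a tissue differed little beside the gap between tissues, and the calls held without any of the 4 libraries. EPHX1, the microsomal hydrolase that acts mainly on foreign epoxides, was 18.4, 25.5, 25.9 and 36.0 CPM in C1, C2, T1 and T2 and was not called (log2 fold change 0.50, SE 0.28, adjusted p = 0.312). Within a library, the log2 ratio of EPHX1 to EPHX2 was 0.78 and 1.22 in the controls and −0.45 and −0.25 in the carcinomas. In the RefSeq table EPHX1 overlaps TMEM63A, which was 27.0, 51.9, 44.9 and 76.1 CPM in C1, C2, T1 and T2. Reads shared by EPHX1 and TMEM63A cannot be told apart, because the strand setting of the counting is not known.

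None of the remaining P450 genes was called. CYP27A1, a mitochondrial sterol hydroxylase gene, was 69.8 CPM in C1, 80.9 CPM in C2, 115.1 CPM in T1 and 140.7 CPM in T2. Its adjusted p passed (0.035), with a log2 fold change of 0.76 (SE 0.15) that lay under the minimum. CYP4V2, a fatty acid hydroxylase gene, likewise had an adjusted p of 0.0478 with a log2 fold change of −0.75 (SE 0.17), at 179 and 140 CPM in the controls and 102 and 87.1 CPM in the carcinomas. CYP7B1, of oxysterol hydroxylation, was 151 and 143 CPM in the controls and 210.0 and 193 CPM in the carcinomas (log2 fold change 0.46, SE 0.11, adjusted p = 0.0607). CYP7A1, the rate-limiting enzyme gene of bile acid synthesis in liver, and CYP39A1, of oxysterol hydroxylation, lay below both controls in both carcinomas and were not called, with log2 fold changes of −0.37 and −0.42. CYP3A12, a canine drug-metabolizing P450 gene, was 2.13 and 4.17 CPM in control and 5.01 and 5.35 CPM in carcinoma and was called with the replicate block only (log2 fold change 1.04, adjusted p = 7.04e-05, against 0.83 and 0.274 without it). CYP2U1, CYP20A1 and CYP27C1 had log2 fold changes from −0.25 to 0.66 and were not called.

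HSD11B1 rose in carcinoma, and none of the HSD17B genes was called. HSD11B1, which encodes the enzyme that regenerates active glucocorticoid, was 11.2 CPM in C1, 12.1 CPM in C2, 27.6 CPM in T1 and 22.6 CPM in T2, a log2 fold change of 1.12 (SE 0.22, adjusted p = 0.0338). Both carcinomas lay above both controls, with a ratio of 2.46 in pool 1 and 1.88 in pool 2 (95% interval 1.30 to 2.72). The call of HSD11B1 was lost without C1 (adjusted p = 0.213), C2 (0.0895) or T1 (0.204) and with total counts in place of TMM (0.0519). In the RefSeq table HSD11B1 overlaps LAMB3, a laminin gene, which was 13.1 and 37.3 CPM in the controls and 32.4 and 91.0 CPM in the carcinomas. The strand setting of the counting is not known, so reads shared by the 2 genes cannot be told apart. H6PD, whose enzyme supplies the cofactor of HSD11B1, was 37.3 and 70.9 CPM in control and 73.3 and 147 CPM in carcinoma and was not called (log2 fold change 1.03, SE 0.45, adjusted p = 0.213), although with the replicate block it was (log2 fold change 1.00).

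The HSD17B genes here serve fatty acid as much as steroid metabolism. HSD17B4, of peroxisomal fatty acid breakdown, was 172, 144, 142 and 130.0 CPM in C1, C2, T1 and T2 (log2 fold change −0.22, SE 0.14, adjusted p = 0.355). HSD17B12, of fatty acid elongation, was 96.9 and 84.6 CPM in control and 114 and 101 CPM in carcinoma (log2 fold change 0.24, SE 0.13, adjusted p = 0.292). HSD17B8, HSD17B10 and HSD17B14 had log2 fold changes of −0.01, −0.55 and 0.45. Among 14 measured genes of 22 listed as steroid and vitamin D partners, 3 receptor genes fell, none rose (edgeR, with 7 genes at an unadjusted p under 0.05 in either direction and none called higher by DESeq2) and 11 were not called. An unadjusted p under 0.05 in edgeR was reached by 28.5% of all genes. ESR1, the estrogen receptor gene, fell by 1.87 on the log2 scale (SE 0.13, adjusted p = 0.00259) and PGR, the progesterone receptor gene, by 1.14 (SE 0.20, adjusted p = 0.0245). The call of PGR was lost without C1 (adjusted p = 0.0683) and without T2 (log2 fold change −0.93). NR3C1, the glucocorticoid receptor gene, was not called (log2 fold change −0.53, SE 0.13, adjusted p = 0.0596).

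The monoamine oxidase genes MAOA and MAOB, which are neighbors in the RefSeq table, differed in response. MAOB fell from 22.1 CPM in C1 and 18.1 CPM in C2 to 3.205 CPM in T1 and 2.68 CPM in T2, a log2 fold change of −2.74 (SE 0.29, adjusted p = 0.00578). MAOA was 140 CPM in C1, 129 CPM in C2, 121 CPM in T1 and 107 CPM in T2, a log2 fold change of −0.24 that was not called (SE 0.12, adjusted p = 0.271). The log2 ratio of MAOA to MAOB within a library was therefore 2.66 and 2.83 in the controls and 5.19 and 5.26 in the carcinomas, a shift of 2.48 on average, 2.53 in pool 1 and 2.44 in pool 2. The spread between pools was small beside this shift.

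The flavin monooxygenase genes FMO4 and FMO5, whose enzymes belong to a family that oxidises amines and sulfur compounds, were not called. FMO5 was 28.8 CPM in C1, 23.9 CPM in C2, 21.4 CPM in T1 and 16.7 CPM in T2 (log2 fold change −0.46, SE 0.23, adjusted p = 0.269). FMO4 was 10.4 and 7.19 CPM in the controls and 12.1 and 12.8 CPM in the carcinomas (log2 fold change 0.47, SE 0.30, adjusted p = 0.365). For both genes the 2 tissues did not overlap.

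Of the 5 glutathione transferase genes 4 had a log2 fold change above 0, and GSTM4 was called. GSTM4 was 17.0 CPM in C1, 13.9 CPM in C2, 37.7 CPM in T1 and 33.9 CPM in T2, a log2 fold change of 1.20 (SE 0.21, adjusted p = 0.0225). The call of GSTM4 was lost without C1 (adjusted p = 0.0705), C2 (0.0632) or T1 (0.117). Genes of the GSTM group are close paralogs, so the counting may have divided reads between GSTM4 and its relatives. GSTM3 was 5.76 and 8.11 CPM in the controls and 5.04 and 5.65 CPM in the carcinomas and was not called (log2 fold change −0.36, SE 0.32, adjusted p = 0.515). MGST1, a microsomal transferase gene, was 78.3, 56.1, 130.3 and 115.1 CPM in C1, C2, T1 and T2, and its log2 fold change of 0.86 (SE 0.19, adjusted p = 0.0461) lay under the minimum. Without C1 it reached 1.08 and MGST1 was called (adjusted p = 0.0289). GSTZ1, of tyrosine breakdown, and GSTO1 had log2 fold changes of 0.83 and 0.24 and were not called.

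None of the other conjugating, reducing or ester-cleaving enzymes was called. UGT8, the galactosyltransferase gene of myelin lipids, was 30.0, 24.6, 24.2 and 18.4 CPM in C1, C2, T1 and T2 and was not called (log2 fold change −0.35, SE 0.23, adjusted p = 0.397). SULT1C4 was 101 and 60.3 CPM in control and 96.6 and 71.1 CPM in carcinoma, with pool 1 above pool 2 in both tissues (log2 fold change 0.05, SE 0.29, adjusted p = 0.926). CES1, a carboxylesterase gene, was 121 CPM in C1, 169 CPM in C2, 235 CPM in T1 and 286 CPM in T2, and with a log2 fold change of 0.85 (SE 0.20, adjusted p = 0.0576) it was not called, though without C2 it was (log2 fold change 1.10, adjusted p = 0.0199). CES2 had a log2 fold change of 0.75 (SE 0.29, adjusted p = 0.174). The aldehyde reductase gene AKR1A1 was 26.3, 25.7, 29.2 and 32.4 CPM, and AKR7A2 5.52, 11.4, 6.01 and 10.4 CPM, in the same order of libraries, with neither called. ADH4, an alcohol dehydrogenase gene, was 31.8 and 24.8 CPM in control and 27.8 and 21.7 CPM in carcinoma and was not called (log2 fold change −0.19, SE 0.23, adjusted p = 0.641).

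Genes that regulate or serve these enzymes also went both ways. Of 21 measured genes among 37 listed as drug response regulators and redox partners, 2 rose, 2 fell and 17 were not called. NQO1, a quinone reductase gene, rose by 2.00 on the log2 scale (SE 0.19, adjusted p = 0.00481) and GCLM, of glutathione synthesis, by 1.46 (SE 0.17, adjusted p = 0.00766). GCLC, also of glutathione synthesis, was 139 and 134 CPM in the controls and 99.7 and 91.6 CPM in the carcinomas. Its adjusted p passed (0.0421), but its log2 fold change of −0.51 (SE 0.11) was under the minimum in size. GSS, of the same synthesis, was not called (log2 fold change 0.11, adjusted p = 0.639). NNMT, a methyltransferase gene of nicotinamide, fell by 2.67 (SE 0.33, adjusted p = 0.00846) and XDH, the xanthine oxidoreductase gene that is also part of milk fat secretion, by 1.16 (SE 0.12, adjusted p = 0.00593). NFE2L2, which encodes the transcription factor of the antioxidant response, was 126, 96.0, 123 and 110.0 CPM in C1, C2, T1 and T2 and was not called (adjusted p = 0.814), nor was POR, the gene of the reductase that feeds electrons to microsomal P450 enzymes (log2 fold change 0.48, adjusted p = 0.213).

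Within the pools, the log2 ratio of carcinoma to control had the same sign in pool 1 and pool 2 for 56 of the 66 genes, where 84.5% of all genes did. The 12 called genes were among the 56. Pools also differed from each other within a tissue. The log2 level of pool 2 minus pool 1 ran from −0.93 (ALDH1A2) to 1.50 (CYP1A1) in control and reached 1.50 (ALDH16A1) in carcinoma, with medians of −0.02 and 0.05. It had the same sign in both tissues for 54 of the 66 genes, where 79.2% of all genes did, and for ALDH4A1 it was 1.22 in both. With the pool as a replicate block, which takes this shared offset out of the error, 10 of the 66 genes were called higher and 6 lower, where 7.09% and 6.83% of all genes were. The 12 genes called without the block were called with it, and 4 were added, RDH5, RDH11 and CYP3A12 among them. At any fold change, 49 of the 66 genes had an adjusted p under 0.05 in the blocked fit, where 64.1% of all genes did. The blocked fit has 1 residual degree of freedom, against 2 without the block. Its common dispersion, the spread shared over genes, was 0.00216, against 0.0508 without the block. Its small p-values should be read with this limit.

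**Figure D4:**
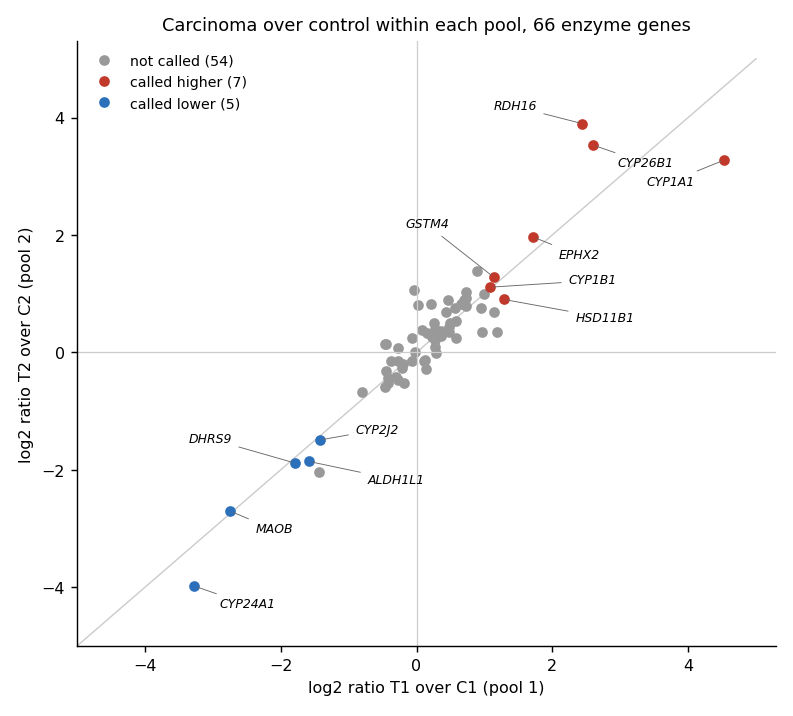
The x axis gives log2 of T1 over C1 (pool 1) and the y axis log2 of T2 over C2 (pool 2) for the 66 enzyme genes, with 7 genes called higher in red, 5 called lower in blue and 54 not called in grey. The called genes lie in the quadrants where both pools move the same way, with CYP1A1 at 4.53 and 3.28 and CYP24A1 at −3.27 and −3.98.

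**Figure D5:**
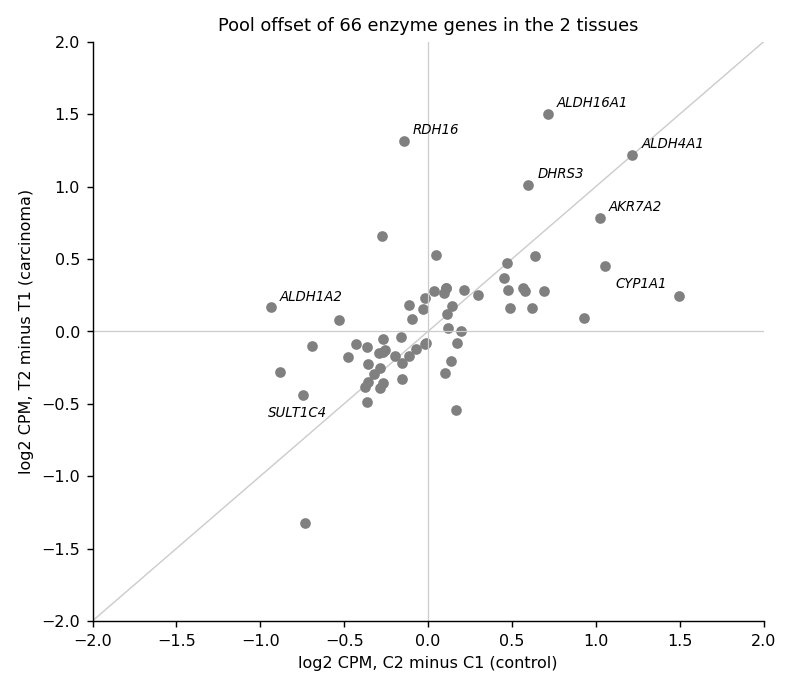
Log2 CPM of pool 2 minus pool 1 in control (x axis) and in carcinoma (y axis), with 1 point for each of the 66 enzyme genes and the diagonal in grey. ALDH4A1 lies on the diagonal at 1.22 in both tissues, while CYP1A1 and RDH16 lie away from it.

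Marker genes of several cell types differed in level between the tissues. Summed over the markers measured, striated muscle genes (4 of 7 listed) were 1765 and 2884 CPM in the controls and 21.1 and 27.1 CPM in the carcinomas. Fibroblast genes (7 of 8) were 7392 and 8372 CPM against 2754 and 3613 CPM, and blood endothelial genes (7 of 7) 765 and 758 CPM against 404 and 385 CPM. Of the endothelial genes PECAM1, VWF, EMCN and CDH5 fell. TEK, KDR and FLT1 were not called, with log2 fold changes of −0.71, 0.03 and 0.30. Luminal epithelial genes (6 of 10) were 1004 and 1033 CPM against 559 and 702 CPM, with ESR1 and ELF5 called lower. EPCAM, KRT19, GATA3 and FOXA1 were not called, with log2 fold changes of −0.32, 0.22, 0.23 and −0.83. T and NK cell genes (3 of 6) were 24.1 and 20.2 CPM against 7.87 and 7.73 CPM, and macrophage genes (4 of 7) 417 and 382 CPM against 242 and 249 CPM. Of the macrophage genes MRC1 fell. AIF1, CD163 and CSF1R were not called, with log2 fold changes of −0.77, −0.65 and −0.13. Cartilage genes (6 of 6) were 75.3 and 75.1 CPM in the controls and 1084 and 1395 CPM in the carcinomas, and myoepithelial genes (6 of 9) were 810 and 979 CPM in the controls and 1243 and 1569 CPM in the carcinomas, with none called and with TP63 and ACTA2 at log2 fold changes of −0.42 and −0.56. The groups did not overlap in any of these sums. Sums for adipocyte genes (3 of 10, without ADIPOQ and PLIN1) and for nerve and Schwann cell genes (2 of 6) overlapped between the tissues. Mast cell genes (4 of 6) were 165 and 145 CPM against 134 and 136 CPM, a sum made up mostly of KIT, which was not called, while CPA3, MS4A2 and FCER1A fell by 3.13, 2.25 and 1.66 on the log2 scale. B and plasma cell genes (1 of 5) were 372 and 297 CPM against 351 and 281 CPM, and the genes listed for liver (4 of 6) 67.4 and 62.8 CPM against 141 and 160 CPM. In the liver list SERPINA1 rose (log2 fold change 2.01), while ALB fell from 7.55 and 6.26 CPM to 0.172 CPM in T1 and a count of 0 in T2, which allows up to 0.892 CPM. The part of these differences in the changes of the enzyme genes was not tested.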

How the data were processed

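The authors deposited raw counts of reads per gene, as whole numbers that had not been normalized, for 4 total RNA libraries (TruSeq Stranded Total RNA kit). The study's methods name TopHat2 and HTSeq, and the submitters' processing notes FastQC, STAR, featureCounts and DESeq2. Neither genome build nor strand setting is named in these sources. Each deposited table also holds a gene length, near the gene span (median ratio 1.00 over 62 enzyme genes placed by symbol in RefSeq), which was not used.

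The tests ran in R 4.3.3. The package edgeR 4.0.16 supplied filterByExpr by group (passed by all 11277 genes), TMM factors and the quasi-likelihood test, and DESeq2 1.42.0 served as an alternative. Log2 levels used a prior count of 2. Each SE was taken from the log2 fold change and the F statistic of its test. Ratios within a pool carry 95% Clopper-Pearson intervals conditional on the summed counts. At a count of 0, 3 counts would be 0.0858 to 0.892 CPM, depending on the library. The fits were tested on simulated data. Pairing comes from the study's account of the dogs alone. Across genes the deviation of a library from its tissue mean correlated at 0.782 with that of the library of the same pool. With 2 libraries in a tissue the correlation with the other pool is necessarily the mirror of this, at −0.782. Pool 2 was also the shallower pool in both tissues, so this value cannot tell shared dogs from depth.

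Values of some genes are not reported here, although they count in every total. Full statistics were meant for called genes, genes with an unadjusted p under 0.05 and the 2 genes with most counts in each family, and others were added where pools or related genes differed. The enzyme families, pathway lists and marker lists were chosen with earlier results of these data known, and the genes within the families by symbol. No promoter or protein sequence was used here.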

Additional observations from a re-analysis of the deposited data

How the results depend on the processing

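The counts of 7 enzyme genes higher and 5 lower stayed within 1.5 times of these values with DESeq2, with RLE size factors, with total counts only, without a filter on low counts, with no minimum fold change and with the replicate block, which gave 10 and 6. Under a minimum of 10 counts per library they were 4 and 2, because CYP1A1, CYP24A1, CYP26B1, DHRS9, MAOB and RDH16 were then not tested. Leaving out 1 library gave 4 to 7 genes higher and 3 to 4 lower, and a median log2 fold change of the 66 genes of 0.20 to 0.29, with the lone library of a tissue assumed to vary like the others. CYP24A1, MAOB, CYP2J2, CYP26B1, CYP1A1 and EPHX2 kept their calls without any of the libraries. Fold changes near 0 changed sign, AKR7A2 from −0.04 to 0.055 with the replicate block and between −0.58 and 0.52 with a library left out, DHRS7 between −0.032 and 0.34 and SULT1C4 between −0.25 and 0.44. The cause was not tested. The pool number as a replicate block added 4 calls, RDH5, RDH11 and CYP3A12 among them, and ended no call among the 66. Precision is limited by pool 2, where 7 of the 66 genes had under 10 counts in a library.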
